A study of Mus musculus with 8 samples.

Results

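The genes described here are 35 mouse genes of the pericellular protease system: 10 secreted matrix metalloproteinases (MMPs), 5 membrane-bound MMPs, 4 tissue inhibitors of metalloproteinases (TIMPs), 4 genes of the plasminogen activator system, 5 ADAMs and 7 ADAMTSs. The list was drawn up with earlier results of these data known. Probes were then selected by gene name alone, as every array probe that is not a control and whose accession maps to a listed gene. This gave 46 probes for all 35 genes, of 39429 probes and 21612 named genes on the array. Expression was measured in AML12 cells, a hepatocyte line established from a mouse transgenic for human TGF-α, so all groups share that origin. The control group (n = 4) was cultured for 24 h without irisin and the treated group (n = 4) for 24 h with 0.5 µg/ml irisin, the peptide cleaved from Fndc5, both in the same serum-containing medium. RNA of each sample was hybridized to 1 one-color Agilent array, and the comparison asks which genes differ after irisin. The labels do not say that the replicates came from separate cultures, so p-values measure the spread between these samples, which may be technical. The control arrays shared 1 slide and scan and the irisin arrays another, so that treatment cannot be told apart from slide or scan.

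MMPs are zinc-dependent endopeptidases that are made as inactive precursors and together cleave most proteins of the extracellular matrix, while TIMPs bind and block their active site. The plasminogen activators Plau (urokinase) and Plat (tissue-type) convert plasminogen, a protein made by hepatocytes, into plasmin, which dissolves fibrin and activates several MMP precursors. ADAMs are membrane proteases that release the outer parts of growth factors, cytokines and receptors, and ADAMTSs are secreted proteases that process procollagens, aggrecan and versican. In fibrotic liver much of the MMP and TIMP expression is known to come from stellate cells and macrophages.

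Several members share a promoter feature that the selection did not use. RefSeq promoters (GRCm38.p6) were found for 23 of the 35 genes, and the 100 bases before each transcription start were searched on both strands for the AP-1 motif TGANTCA, which reads the same on either strand, and for the TATA box letters TATAAA. No promoter entry was found for Mmp2, Mmp9, Mmp17, Mmp19, Plau, Plat, Adam9, Adam12, Adamts4, Adamts5, Adamts10 and Adamts15. These 23 genes have 26 promoter entries, and the AP-1 letters were found in 6 of the 26, 1 each of 6 genes, compared with 2.73% of 32851 promoters. In these genes the first base of the match lay 35 (Mmp13), 44 (Mmp12), 46 (Mmp3), 63 (Mmp10), 63 (Mmp7) and 69 (Plaur) bases before the start. The TATA box letters were found in 5 of the 26, those of Adamts1, Mmp3, Mmp7, Mmp10 and Mmp13, compared with 5.56% of the 32851 promoters. Within 250 bases before the start the same genes matched, against 6.75% of promoters for the AP-1 letters and 12.4% for the TATA box letters. Except for Plaur, the genes with the AP-1 letters lie in 1 block on chromosome 9, described below, and may not be independent. A match is a description of the letters and not of binding. The 6 windows with the AP-1 letters are shown because these genes range from background on every array to well above it on all 8, and the window of Timp4, which holds neither motif, because Timp4 had the largest difference. Each window runs 5′ to 3′ and ends at the base before the start, with the AP-1 letters in capitals.
Mmp13 (chr9:7272414-7272513, + strand): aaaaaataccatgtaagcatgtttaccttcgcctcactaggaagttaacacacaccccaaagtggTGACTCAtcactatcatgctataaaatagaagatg
Mmp12 (chr9:7347274-7347373, + strand): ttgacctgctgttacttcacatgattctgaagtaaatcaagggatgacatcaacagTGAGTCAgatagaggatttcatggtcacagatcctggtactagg
Mmp3 (chr9:7445722-7445821, + strand): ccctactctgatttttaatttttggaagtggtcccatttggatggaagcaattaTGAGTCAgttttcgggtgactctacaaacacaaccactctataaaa
Mmp10 (chr9:7502242-7502341, + strand): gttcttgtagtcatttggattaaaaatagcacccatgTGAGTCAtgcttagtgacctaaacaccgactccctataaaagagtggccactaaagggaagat
Mmp7 (chr9:7691990-7692089, + strand): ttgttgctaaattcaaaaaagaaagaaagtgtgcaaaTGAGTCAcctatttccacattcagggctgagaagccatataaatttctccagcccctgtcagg
Plaur (chr7:24462383-24462482, + strand): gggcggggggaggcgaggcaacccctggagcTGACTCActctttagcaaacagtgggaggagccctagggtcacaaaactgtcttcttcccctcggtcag
Timp4 (chr6:115252206-115252305, - strand): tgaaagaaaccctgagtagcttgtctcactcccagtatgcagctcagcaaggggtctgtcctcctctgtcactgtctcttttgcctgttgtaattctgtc
Of the genes with the AP-1 letters, Mmp13 and Plaur were well above background on all 8 arrays, Mmp7 on 3 control arrays, and Mmp3, Mmp10 and Mmp12 on none. For Mmp12 and Mmp7, which have more than 1 promoter entry, the window with the match is shown.

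Signals are given as the log2 of the background-subtracted signal minus the log2 of the 75th percentile of the same array, so negative values lie below that percentile and values of different genes are not compared. A probe was tested with limma when the scanner software marked it as well above background throughout at least 1 group, and a difference was called at 1.5-fold or more with a Benjamini-Hochberg adjusted p-value under 0.05 over all 24093 tested probes. The 75th percentile of the signal was 372 to 534 on the control arrays and 682 to 850 on the irisin arrays, and 59.5% to 64.1% of probes were well above background. Over the whole array 172 probes were higher and 2816 lower in irisin-treated cells, and the split depended on the scaling, with 5.76% of calls being increases here, 39.6% under quantile normalization, 42.7% under cyclic loess, 96.5% when scaled to spike-in probes and 98.9% unscaled. The last pair moved the median of all genes to 0.54 and 0.67 on the log2 scale, so changes under them are given relative to that median. These settings and the 75th percentile differ only by a shift common to all genes of an array. Changes relative to the median under them therefore repeat the main result by construction. All 10 hepatocyte markers examined, Alb, Ttr and Hnf4a among them, passed on each of the 8 arrays. Of 7 stellate cell or fibroblast markers only Col1a1 and Col1a2 did so, and Col3a1, Des, Pdgfrb, Lum and Dcn did on none. Before scaling the summed signal of these 7 markers was 45.2 to 51.3 on the control arrays and 48.0 to 60.5 on the irisin arrays. Of 6 macrophage markers Cd68, Csf1r and Cd14 passed on each array, Ptprc and Adgre1 on some and Lyz2 on none. Of 5 endothelial markers Pecam1 and Kdr passed on each array, Stab2 on some and Cdh5 and Tek on none. Of 4 cholangiocyte markers Krt7, Krt19 and Sox9 passed on each array and Epcam on some. The unscaled sums, like the 75th percentile, were higher on every irisin array for the macrophage list (4739 to 7937 in control, 9027 to 11246 in irisin), the cholangiocyte list (16552 to 26876 and 32688 to 37529) and the hepatocyte list (195475 to 256865 and 306284 to 336235), and overlapped for the endothelial list (281 to 416 and 329 to 470). Col1a2 and the endothelial Pecam1 were lower after irisin at both thresholds, and the part of these markers in the results below was not tested.

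Of the 35 genes, 27 could be tested, and 25 of these were well above background on all 8 arrays. Among those 25, 2 were lower after irisin, Timp4, an inhibitor of MMPs, and the membrane-bound Mmp24, and none was higher, and in such bulk RNA fewer expressing cells and less RNA per cell cannot be told apart. That is 8.0% of them, near the share of 9.06% lower among the 13707 genes on all 8 arrays, of which 0.525% were higher. The membrane-bound Mmp23 was also past both thresholds, but it was tested only through the control group, where it is high, so its difference is given as a description. With it, 3 of the 27 tested genes were lower, and none of the secreted MMPs, the plasminogen activator genes, the ADAMs or the ADAMTSs changed at both thresholds by the probe that stands for the gene, the brightest tested one. Among all 14312 tested genes 10.2% were lower and 0.531% higher. The median change of the 27 members was -0.06 on the log2 scale and that of all genes was -0.06, with 11 members above 0 and 16 below. At an unadjusted p under 0.05, 2 members were higher and 7 lower, against 5.94% and 23.6% of all genes. With the adjusted p alone and no minimum fold, 1 member was higher and 6 lower, against 2.65% and 17.9% of all genes. By the test named in the study's methods, in place of limma, the count was the same, 3 lower and 0 higher. The counts of lower members over the 27 all include Mmp23.

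**Figure D1:**
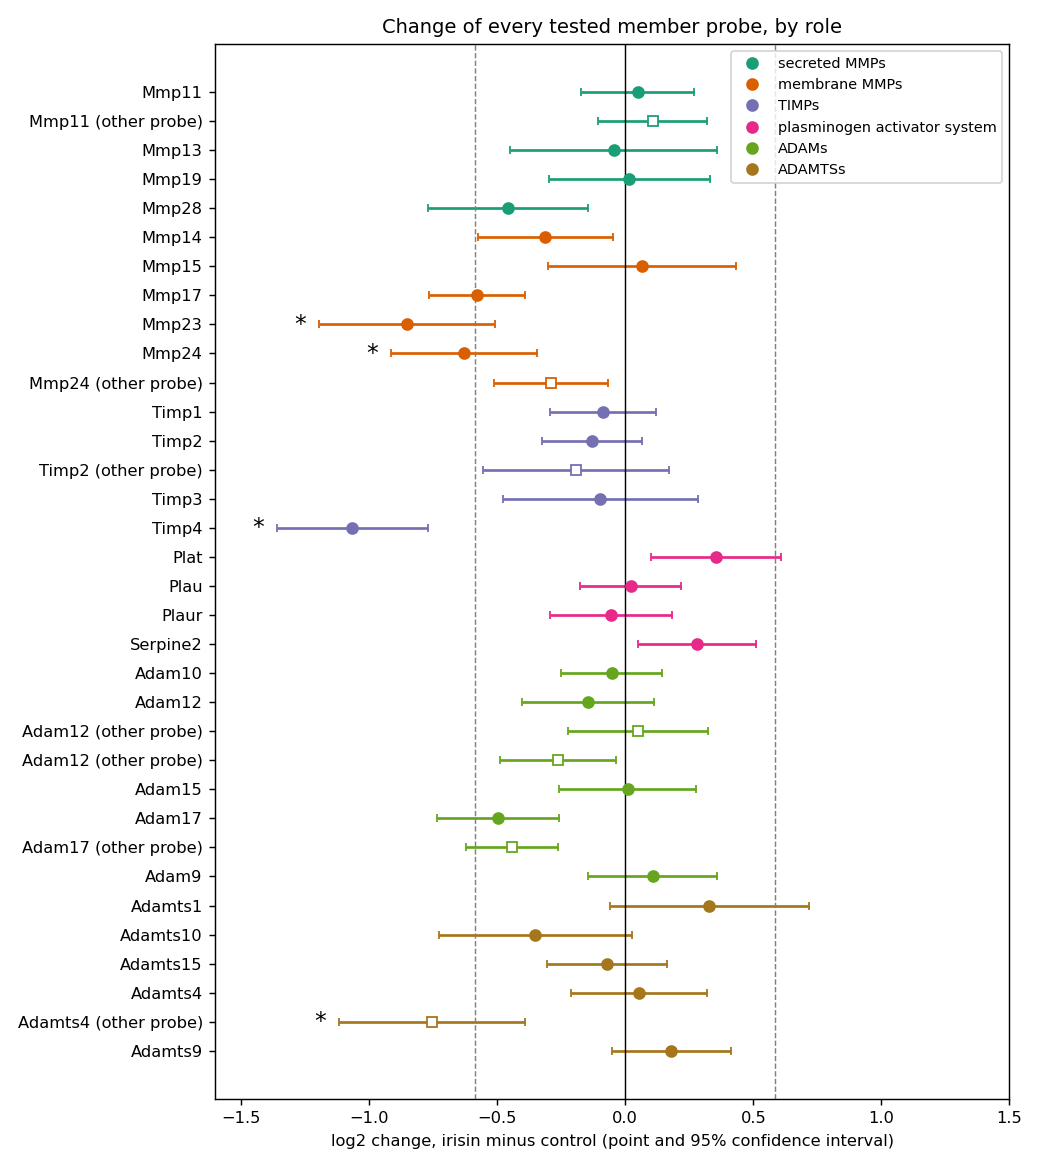
Log2 change, irisin minus control, of each of the 34 tested member probes (horizontal axis), listed by role. Points are estimates and bars 95% confidence intervals from limma (4 arrays per group), filled circles are the probe that stands for a gene, open squares its other probes, dashed lines mark 1.5-fold, and asterisks mark the 4 probes past both thresholds, all of them on the left for Timp4, Mmp23, Mmp24 and the dimmer Adamts4 probe.

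The called members were all dim. When the tested genes were ranked by mean signal, Timp4, Mmp24 and Mmp23 lay in the 3 dimmest deciles, where 31.7% of all genes were lower. Of the members on all 8 arrays 11 lay there and 2 of them were lower, against 30.6% of such genes. In the 7 brighter deciles 0 of 14 members and 1.01% of all genes were lower. The median change of all genes in the 3 dimmest deciles was -0.57, -0.30 and -0.09, and that in the brightest decile was -0.15. Thus Timp4, Mmp23 and Mmp24 lay below the median of their decile, as did Mmp17 and Adam17, and the other 8 of the 13 tested members there, Timp3, Plau, Mmp13, Mmp15 and Mmp19 among them, lay above it.

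**Figure D2:**
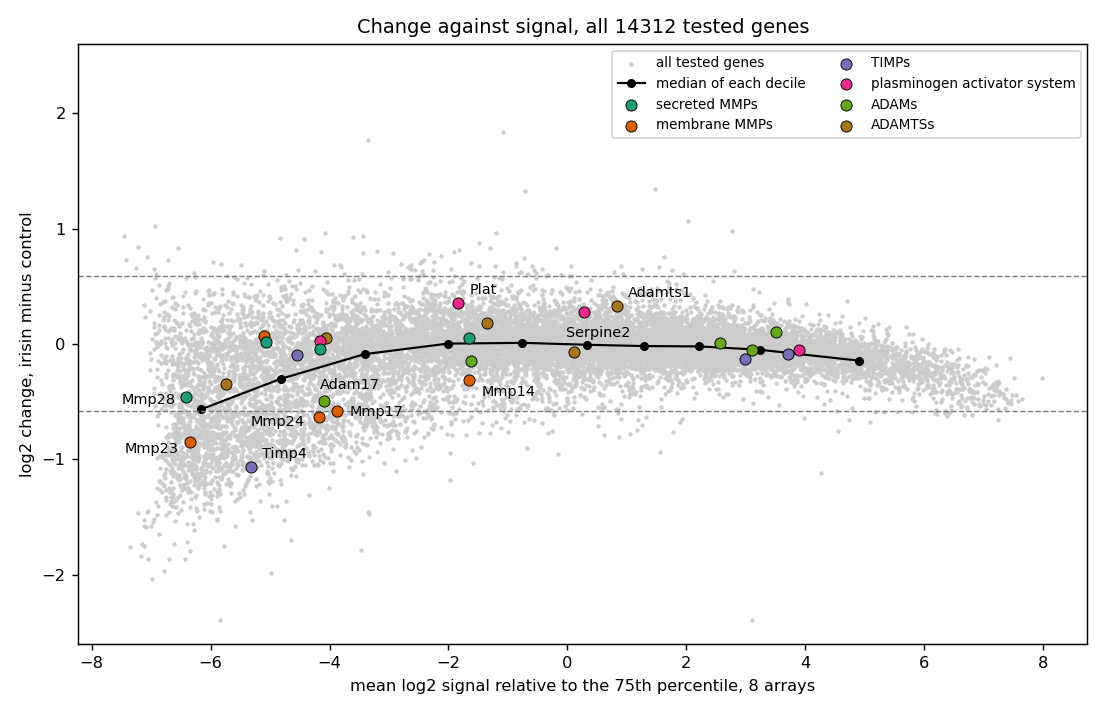
Log2 change, irisin minus control (vertical axis), against the mean log2 signal of the 8 arrays relative to the 75th percentile (horizontal axis) for all 14312 tested genes in grey, the median of each decile in black, and the 27 tested members in the color of their role. The black line bends down to -0.57 at the dim end, where the 3 called members lie, and the brighter members all stay within 1.5-fold of no change.

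Among the TIMPs, which inhibit MMPs and in part ADAMs and ADAMTSs, 1 of 4 changed and the other 3 did not pass. Timp4, a TIMP best known from heart and brain, had control values of -4.68, -4.81, -4.82 and -4.83 and irisin values of -5.94, -5.88, -6.14 and -5.45. The groups did not overlap, and the irisin arrays were more spread. Timp4 fell by 1.06 on the log2 scale (SE 0.133, 2.09-fold, adjusted p = 0.000292 in limma, exact two-sided permutation p = 0.0286, the smallest that 4 arrays against 4 allow). Its change was below 0 in all 20 alternatives computed probe by probe and past both thresholds in 17, with adjusted p-values between 3.24e-05 and 0.128. The alternatives that ended the call were scaling to spike-in probes (-0.46), no scaling (-0.33) and a different background correction combined with quantile normalization (-0.17). That correction adds an offset of 50 to every signal, which shrinks log2 changes of dim probes such as that of Timp4. The signal before scaling was 14.5 to 18.9 on the control arrays and 11.4 to 19.4 on the irisin arrays, with irisin replicate 4 the highest of all.

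Timp1, the most inducible TIMP and the brightest tested one here, had control values of 3.85, 3.74, 3.80 and 3.66 and irisin values of 3.54, 3.85, 3.58 and 3.72. The groups overlapped and the difference was -0.09 (95% interval -0.29 to 0.12). Timp2, which together with the membrane-bound Mmp14 activates the Mmp2 precursor, differed by -0.13 by one probe and -0.19 by the other, and Timp3, which stays bound to the matrix, by -0.10. Timp3 differed by 0.17 with quantile normalization and 0.20 with cyclic loess. On the same array, where a shift common to all its genes cancels, Timp4 minus Timp1 was -8.55 ± 0.0564 (SD, n = 4) in control and -9.53 ± 0.260 (SD, n = 4) in irisin. The difference was -0.98 (exact two-sided permutation p = 0.0286, 0.0857 after Benjamini-Hochberg adjustment over 12 such within-array comparisons). It repeats the separation of Timp4, and the shift between dim and bright genes does not cancel in it.

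Of the 5 membrane-bound MMPs 4 passed the background criterion on each of the 8 arrays. In these 4, 1 was lower at both thresholds, 3 differed by less than 0 and the median was -0.45, or -0.38 relative to the median of all genes. Of all genes on all 8 arrays 9.06% were lower, and 30.6% of those in the 3 dimmest deciles, where Mmp15, Mmp17 and Mmp24 lay. The decile of Mmp15 and Mmp24 had a median change of -0.30 and that of Mmp17 -0.09. Mmp23, a small transmembrane MMP without the usual cysteine switch, had control values of -5.73, -6.31, -6.08 and -5.56 and irisin values of -6.63, -6.96, -6.78 and -6.72. The groups did not overlap, but irisin replicate 2 was not well above background, so the probe passed the filter only through the group where it is high, and no p-value is read from it. The difference was -0.85 on the log2 scale, -0.32 with quantile normalization and -0.31 with cyclic loess.

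Mmp24, also known as a membrane-type MMP of neural tissue, had control values of -3.72, -3.78, -3.98 and -3.98 and irisin values of -4.50, -4.24, -4.83 and -4.40. All irisin arrays lay below all control arrays. Mmp24 fell by 0.63 (SE 0.128, 1.55-fold, adjusted p = 0.00423 in limma). It passed both thresholds in 13 of 20 alternatives computed probe by probe, with adjusted p-values from 9.59e-05 to 0.933. Its call ended with quantile normalization (-0.42), cyclic loess (-0.38), the other background correction plus quantile normalization (-0.17), spike-in scaling (-0.03) and no scaling (0.11), and without control replicate 1 (-0.58) or irisin replicate 3 (-0.52). Its second probe differed by -0.29 (adjusted p = 0.0609) and did not pass, and the gap between the probes on the same array moved by -0.34 (exact two-sided permutation p = 0.0286, 0.0857 adjusted over the 12 comparisons). With the mean over its probes Mmp24 changed by -0.46 (adjusted p = 0.0090 in limma), and its call ended too. Before scaling the groups overlapped for the brighter probe. The second probe was then higher on every irisin array, at 13.1 to 17.3 in control and 19.0 to 23.7 in irisin.

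Mmp17, a membrane MMP held by a glycolipid anchor, lay just short of the fold threshold. Its control values were -3.66, -3.66, -3.51 and -3.49 and its irisin values -4.28, -4.14, -4.08 and -4.13, with no overlap. The difference of -0.58 (SE 0.0847, 1.49-fold, adjusted p = 0.000648 in limma) passed both thresholds in 5 of 20 alternatives and was -0.41 with quantile normalization and -0.36 with cyclic loess. It was 0.02 after spike-in scaling and 0.16 unscaled. Relative to the median of all genes it is -0.51 under either and with the 75th percentile, by construction. Mmp14, the main activator of the Mmp2 precursor, had control values of -1.46, -1.38, -1.65 and -1.47 and irisin values of -1.84, -1.58, -2.10 and -1.70. These overlapped at 1 array of each group, and the difference of -0.31 (95% interval -0.57 to -0.05, adjusted p = 0.0842) did not pass. Mmp14 minus Timp2 on the same array differed by -0.18 between control and irisin (exact two-sided permutation p = 0.2). Mmp15 differed by 0.07.

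**Figure D3:**
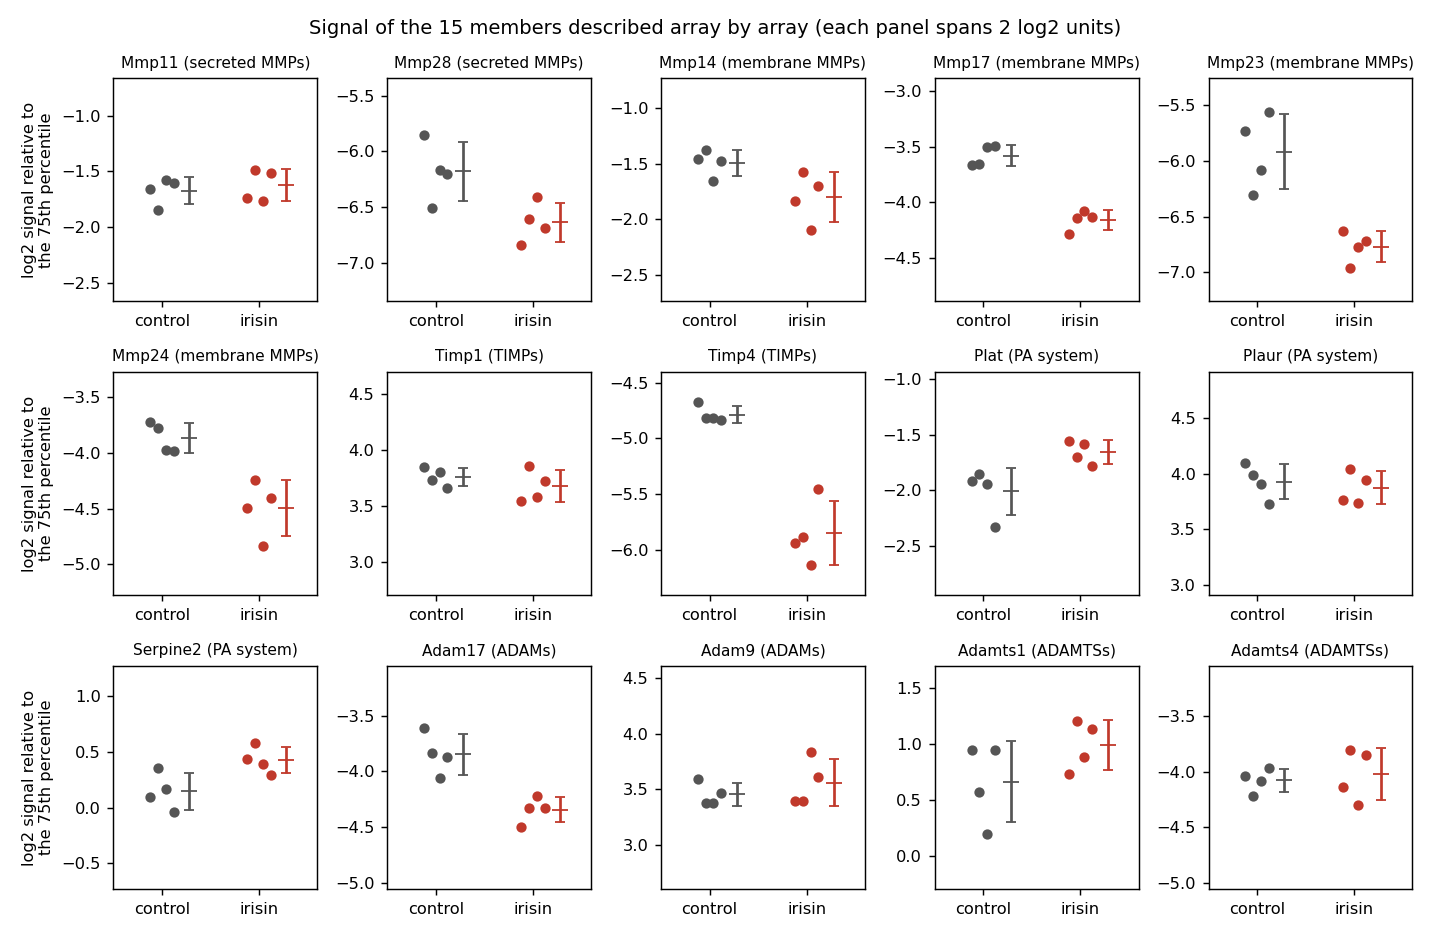
Log2 signal relative to the 75th percentile (vertical axis, 2 log2 units in each panel) of 15 members on each of the 4 control and 4 irisin arrays, with mean and SD beside the points and PA standing for plasminogen activator. The groups are apart for Mmp17, Mmp23, Mmp24, Timp4 and Adam17, with irisin lower, and for Plat, with irisin higher, and overlap for the other 9.

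Of the 10 secreted MMPs 4 were tested and none passed both thresholds. Mmp11, a stromelysin and the brightest tested one, had control values of -1.66, -1.84, -1.58 and -1.61 and irisin values of -1.74, -1.49, -1.76 and -1.51. The ranges lay over each other, with a difference of 0.05 (95% interval -0.17 to 0.27) and 0.11 by a second probe. Mmp13, a collagenase, differed by -0.04 and Mmp19 by 0.02. With quantile normalization they differed by 0.17 and 0.36 and with cyclic loess by 0.21 and 0.38, and were not called. Mmp28 (epilysin) had control values of -5.85, -6.51, -6.16 and -6.20 and irisin values of -6.84, -6.61, -6.41 and -6.69, with overlap at control replicate 2, where it was not well above background. It was therefore tested only through the irisin group, and its difference of -0.46 (adjusted p = 0.037, 1.37-fold) did not reach the fold threshold and was 0.10 with quantile normalization.

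Of the other 6 secreted MMPs, the gelatinases Mmp2 and Mmp9, the stromelysins Mmp3 and Mmp10 and the macrophage elastase Mmp12 never read well above background. With Adamts2 and Adamts5 they make up, together with Mmp7, the 8 members not tested, whose 11 probes and a second probe of Mmp28 had signals before scaling of 0.894 to 7.13. Mmp2 read 0.903 to 0.970, against a median of 0.988 to 1.01 for negative control spots of the 8 arrays. For a probe at this floor the scaled value is lower on the arrays with the higher 75th percentile, as Mmp2 shows with means of -8.96 in control and -9.74 in irisin.

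Mmp7 (matrilysin), an epithelial MMP, was well above background on 3 of 4 control arrays and on none of the irisin arrays. Its control values were -6.26, -6.27, -6.40 and -6.12 and its irisin values -7.39, -7.70, -7.61 and -7.72, so the groups stood apart. The irisin value was then taken as the lowest signal well above background on each irisin array, or that of Mmp7 where higher. Set against it, Mmp7 was 2.34-fold higher in control on the scaled values. This is not a lower bound, because scaling alone lowers a probe near background on the irisin arrays, as shown for Mmp2. Mmp7 was not tested, since it did not pass on all 4 arrays of a group. Before scaling its signal was 4.87, 6.27, 6.34 and 7.13 on the control arrays and 4.74, 3.28, 4.11 and 4.05 on the irisin arrays, which did not overlap either, with control replicate 1 and irisin replicate 1 close to each other and means of 6.15 and 4.04.

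**Figure D4:**
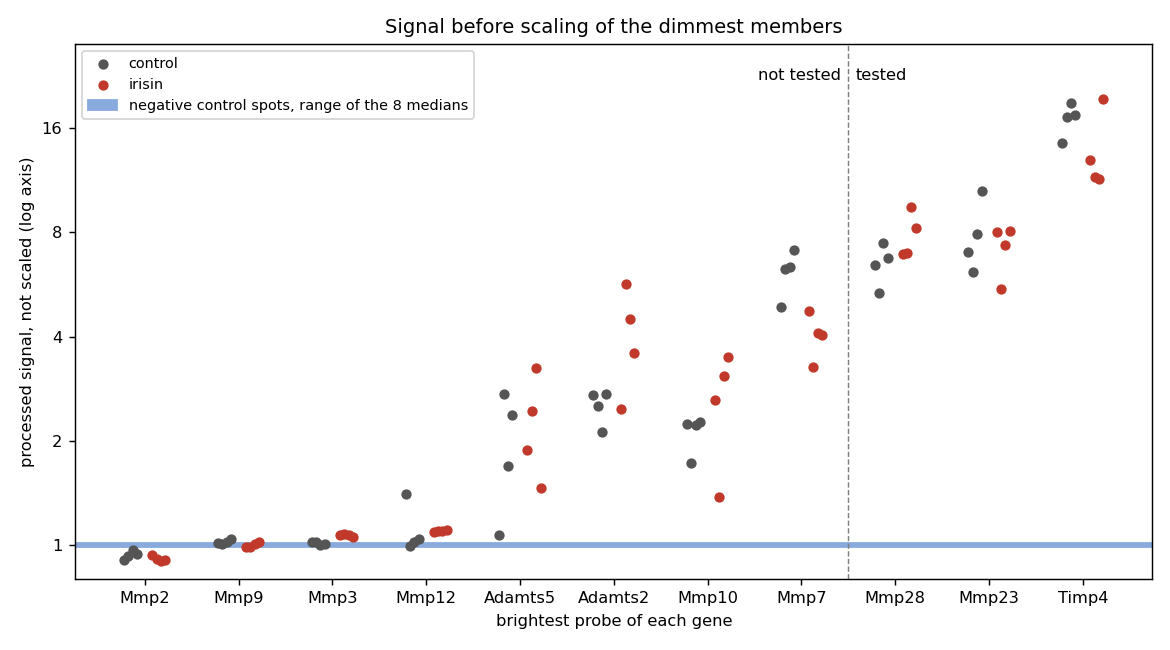
Background-subtracted signal before any scaling (vertical log axis) of the brightest probe of the 8 untested members and of 3 tested ones on the 4 control (grey) and 4 irisin (red) arrays, with the medians of the negative control spots as a blue band. Mmp2, Mmp3 and Mmp9 lie at the band, the groups are apart for Mmp7, with control higher, and narrowly for Mmp3, at 1.00 to 1.02 in control and 1.06 to 1.08 in irisin, and Timp4, Mmp23 and Mmp28 overlap between the groups on this scale.

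Mmp3, Mmp7, Mmp10, Mmp12 and Mmp13 lie in 1 block of the genome. In the order of the RefSeq gene table, a block on chromosome 9 holds 10 protein-coding genes, all of them MMPs: Mmp13, Mmp12, Mmp1b, Mmp3, Mmp1a, Mmp10, Mmp8, Mmp27, Mmp20 and Mmp7. Only Mmp13 at one end of the block was well above background on all 8 arrays. Mmp7 at the other end was on 3, and the 8 genes between them were on none.

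In the plasminogen activator system none of the 4 genes passed both thresholds, with 3 of them above 0 and a median difference of 0.15, which was 0.26 with quantile normalization and 0.27 with cyclic loess. Plat had control values of -1.92, -1.85, -1.94 and -2.33 and irisin values of -1.55, -1.70, -1.59 and -1.78. Every irisin array lay above every control array, the lowest being control replicate 4. The difference was 0.35 (SE 0.114, 1.28-fold, adjusted p = 0.0456 in limma, exact two-sided permutation p = 0.0286). It was 0.37 with quantile normalization (adjusted p = 0.0510 in limma) and 0.37 with cyclic loess (adjusted p = 0.0440 in limma). Adjusted p-values over its 20 alternatives ran from 4.00e-05, unscaled, to 0.381. By the test named in the methods the adjusted p was 0.0920, and in limma it was 0.0410 to 0.113 when single arrays were left out. Serpine2 (protease nexin), a serpin that inhibits both activators and thrombin, had control values of 0.10, 0.36, 0.17 and -0.04 and irisin values of 0.44, 0.58, 0.39 and 0.30. Only control replicate 2 reached the irisin range, and the difference of 0.28 (95% interval 0.05 to 0.51, adjusted p = 0.0765) did not pass.

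Plaur, the urokinase receptor, was the brightest tested member of this group, with control values of 4.10, 3.99, 3.91 and 3.73 and irisin values of 3.76, 4.05, 3.74 and 3.95. The groups overlapped throughout, with a difference of -0.06 (95% interval -0.29 to 0.18). Its ligand Plau differed by 0.02 (95% interval -0.18 to 0.22). The difference of Plau depended on the scaling, at 0.23 with quantile normalization and 0.27 (adjusted p = 0.0403 in limma) with cyclic loess, short of 1.5-fold. On the same array Plat minus Serpine2 differed by 0.07 between control and irisin (exact two-sided permutation p = 0.429) and Plau minus Serpine2 by -0.26 (p = 0.0571, 0.137 adjusted over the 12 comparisons, exact two-sided permutation).

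All 5 ADAMs were tested and none passed both thresholds. Adam17, which sheds TNF, TGF-α and other epidermal growth factor receptor ligands and is blocked by Timp3, had control values of -3.61, -3.84, -4.06 and -3.88 and irisin values of -4.50, -4.33, -4.22 and -4.33. The groups did not overlap. The difference was -0.50 (SE 0.108, 1.41-fold, adjusted p = 0.00604 in limma), and its second probe, at -4.19 ± 0.113 (SD, n = 4) in control and -4.63 ± 0.0110 (SD, n = 4) in irisin, gave -0.44 (adjusted p = 0.00239 in limma). Neither reached 1.5-fold. The difference was -0.30 with quantile normalization, -0.25 with cyclic loess, 0.11 after spike-in scaling and 0.24 unscaled. Relative to the median of all genes it was -0.30 and -0.26 under the first pair. Under the last pair and with the 75th percentile it was -0.43, the same by construction. On the same array Adam17 minus Timp3 was 0.66 ± 0.166 (SD, n = 4) in control and 0.26 ± 0.160 (SD, n = 4) in irisin, a difference of -0.40 (exact two-sided permutation p = 0.0286, 0.0857 adjusted over the 12 comparisons).

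Adam9 was the brightest tested ADAM, with control values of 3.59, 3.38, 3.38 and 3.47 and irisin values of 3.39, 3.40, 3.84 and 3.62. The groups overlapped and the difference was 0.11 (95% interval -0.14 to 0.36). Adam10, the main sheddase of Notch, differed by -0.05 (95% interval -0.25 to 0.14) and Adam15 by 0.01. The 3 tested probes of Adam12 gave -0.15, 0.05 and -0.26, and none passed.

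Of the 7 ADAMTSs 5 were tested, and their representative probes ranged from -0.35 to 0.33 with none past both thresholds. Adamts1, which cleaves versican and was the brightest tested one, had control values of 0.95, 0.57, 0.19 and 0.95 and irisin values of 0.73, 1.21, 0.89 and 1.14. The control arrays were the more spread, and the difference of 0.33 (95% interval -0.06 to 0.72, adjusted p = 0.222) did not pass. The others were Adamts9 at 0.18, Adamts15 at -0.07 and Adamts10 at -0.35. Adamts10 was 0.08 with quantile normalization and 0.11 with cyclic loess.

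Adamts4, an aggrecanase, gave a different answer by each of its 2 probes, which carry the same accession. The brighter probe had control values of -4.04, -4.22, -4.08 and -3.97 and irisin values of -4.14, -3.81, -4.30 and -3.85, a difference of 0.06 (95% interval -0.21 to 0.32). The dimmer probe had control values of -5.90, -6.33, -5.90 and -5.82 and irisin values of -6.98, -6.60, -7.02 and -6.37, and was lower by both thresholds, with a change of -0.75 (SE 0.164, adjusted p = 0.00612 in limma). The distance between the probes on the same array grew from 1.91 ± 0.135 (SD, n = 4) to 2.72 ± 0.142 (SD, n = 4), a difference of 0.81 (exact two-sided permutation p = 0.0286, 0.0857 adjusted over the 12 comparisons). No direction can therefore be given for Adamts4. The dimmer probe's change was -0.21 with both quantile normalization and cyclic loess.

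Across the 27 members the groups did not overlap for 5 that were lower and 1 that was higher, 18.5% and 3.70% of them, against 19.7% and 4.16% of all tested genes. The 5 include Mmp23, which was tested only through the control group, where it is high. The number past both thresholds followed the scaling between arrays. With quantile normalization and with cyclic loess only Timp4 was lower, when 3.81% and 3.43% of all genes were. With scaling to 7 spike-in probes 7 members were higher (Adam9, Adamts1, Adamts4, Adamts9, Mmp15, Plat and Serpine2) and none lower, against 26.3% of all genes higher. With no scaling 19 were higher and none lower, against 66.8% of all genes higher. A background correction by normexp on the spot signal alone gave 6 lower (Adamts10, Mmp17, Mmp23, Mmp24, Mmp28 and Timp4), against 12.8% of all genes. Relative to the median of all genes the change of Timp4 was -1.0 under either spike-in scaling or no scaling, that of Mmp23 -0.79 and that of Mmp24 -0.57, and that of Plat was 0.42.

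**Figure D5:**
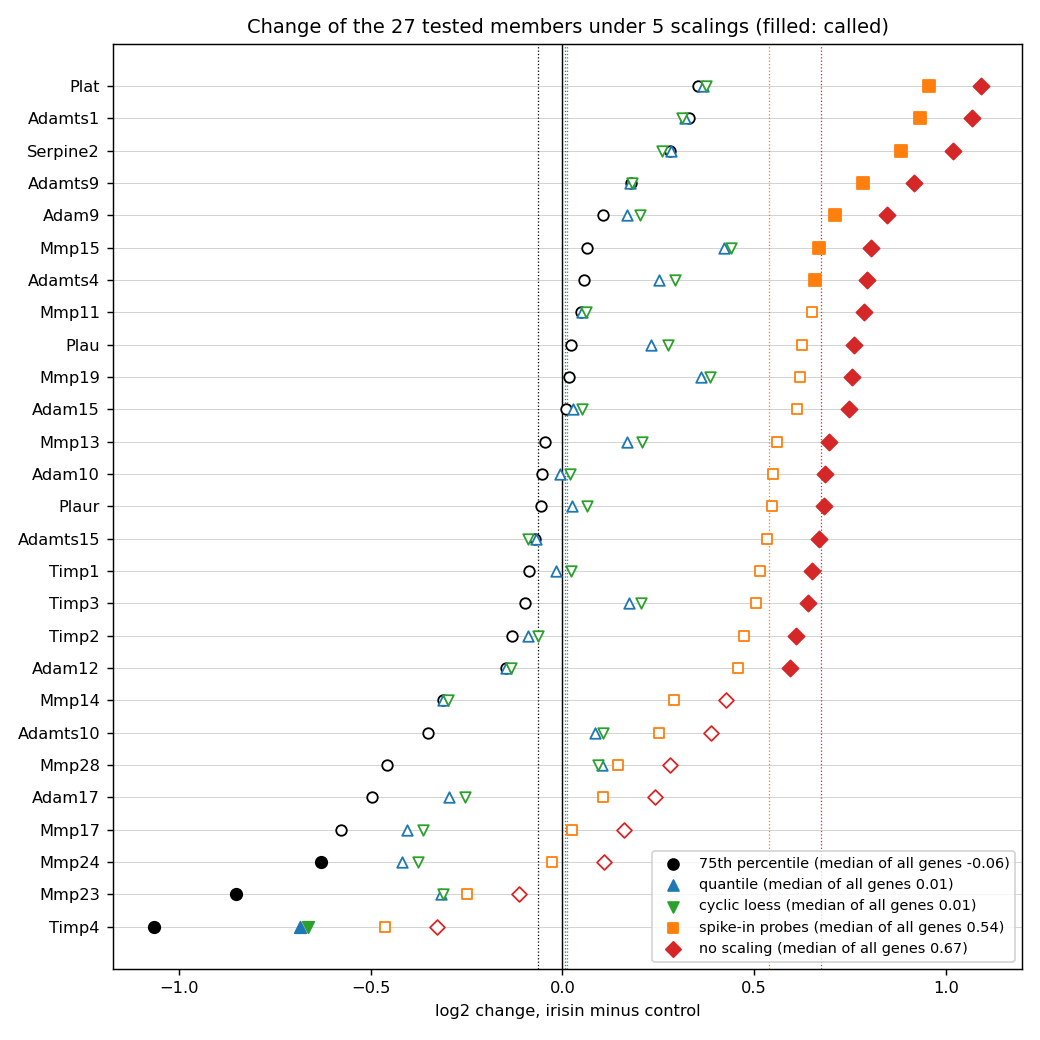
Log2 change, irisin minus control (horizontal axis), of the 27 tested members under 5 ways of scaling the arrays to each other, with filled symbols for members past both thresholds and dotted lines at the median of all genes under each scaling. Timp4 is filled on the left in 3 of the 5, and the spike-in and unscaled values stand to the right of the others for every member.

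Of 54 further genes of the protease system, among them other MMPs and ADAMTSs, plasminogen, its receptor and inhibitors, furin-type convertases, membrane serine proteases and cathepsins, 28 were tested, none was higher and 4 were lower (14.3%, against 10.2% of all genes). All 4 lay in the 3 dimmest deciles, where 10 of the 28 lay and 31.7% of all genes were lower. These were Adamts17 (-1.18, SE 0.151), Spint1 (-1.04, SE 0.147), an inhibitor of membrane serine proteases, Adam33 (-0.72, SE 0.0762) and Adamts8 (-0.70, SE 0.112). Adamts17 alone passed under quantile normalization (-0.75) and cyclic loess (-0.72), and none of the 4 passed after spike-in scaling. Adam33 and Adamts8 were 0.02 and 0.04 unscaled, or -0.66 and -0.63 relative to the median of all genes. At an unadjusted p under 0.05, 1 of the 28 was higher and 9 lower, against 5.94% and 23.6% of all genes. Furin, which activates the membrane-bound MMPs, had the largest difference of them in the 7 brighter deciles, at -0.53 (SE 0.113, adjusted p = 0.00533 in limma), short of 1.5-fold. It was -0.47 with quantile normalization (adjusted p = 0.00856) and -0.43 with cyclic loess (adjusted p = 0.0107), and 0.07 with spike-in scaling, or -0.47 relative to the median of all genes. Anxa2 and S100a10, which together bind plasminogen and Plat at the cell surface, differed by -0.45 (adjusted p = 0.00172 in limma) and -0.31 (adjusted p = 0.0216) and also stayed short of it, and were -0.06 and -0.05 with quantile normalization.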

How the data were processed

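Gene expression in AML12 cells was measured on 8 one-color arrays, 4 of control and 4 of irisin-treated samples, grouped by their deposited labels. The authors labeled RNA with Cy3, scanned the slides and ran Agilent Feature Extraction 12, which subtracts background, and they deposited the processed signal intensity on a linear scale, without normalization between arrays, in scanner files and a value table. The value table deviated from the scanner values by at most 0.0005%.

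Spots marked as outliers, at most 0.463% of an array, were left out, the spots of a probe were averaged, and the log2 of the array's 75th percentile was subtracted from each log2 value. No spot was saturated. The accessions of 28663 probes (72.7%) were named through the RefSeq table of GRCm38.p6, and positions in the files, on another build, were not used. The brightest tested probe stood for its gene. Differences were tested with limma 3.58.1 in R 4.3.3 (lmFit and eBayes) on 24093 probes. Single values were also compared over all 70 assignments of the arrays (exact permutation, two-sided). Precision is limited by the small number of arrays. Of 200 probes changed by 1 on the log2 scale among 24023 simulated probes of the irisin against control comparison, 86.5% were recovered and 4 unchanged probes were called. The simulated noise was independent between probes and held neither the shift of dim genes nor a slide difference. These figures therefore do not give the error rate in the measured data.

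The member genes, the related protease genes and the markers were chosen with earlier results of these data known. Members are given array by array where a probe passed both thresholds, where the representative probe had an unadjusted p under 0.05, and for the brightest tested member of each role, and related genes are named when called, with Furin, Anxa2 and S100a10 named after their values were seen. Alternatives were other scalings, background corrections, filters, probes and thresholds, the deposited value table, an intensity trend with robust eBayes, the test named in the methods, a block for the replicate number, and fits without each single array. Python 3.11.15, pandas 2.3.3, scipy 1.17.1 and matplotlib 3.10.9 were used.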

Additional observations from a re-analysis of the deposited data

Results flagged for a closer look

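In 4 of 68 groups of 4 arrays examined for the 34 tested member probes, 1 array stood far from the other 3, where chance gives about 1 in 20. Control replicate 1 read -4.68 for Timp4, against -4.83 to -4.81 on the other control arrays, and without it the change of Timp4 was -1.03. Control replicate 2 read -6.33 for the dimmer Adamts4 probe, against -5.90 to -5.82, and without it the change of that probe was -0.87. Control replicate 4 read -4.77 for Mmp19, against -5.21 to -5.15. Irisin replicate 3 read -2.71 for the second Mmp11 probe, against -2.62 on the other 3 irisin arrays. The flagged arrays differed from gene to gene. Over the 27 tested members, irisin replicate 2 was the highest array of its group for 14 and control replicate 1 for 11.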

How the results depend on the processing

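The number of decreased members, 3, was the same with the deposited value table, no filter on dim probes, an intensity trend with robust eBayes and the replicate block, and 3 or 4 when each array was left out (4, with Mmp17, without control replicate 2 or irisin replicate 4). Without control replicate 1 or irisin replicate 3, Mmp17 was called in place of Mmp24. It was 1 under quantile or cyclic loess normalization, 0 for spike-in, for unscaled values and for normexp on the spot signal alone plus quantile normalization, 6 with that normexp alone and 6 with the adjusted p alone. It was 2 with the filter on all 8 arrays, which drops Mmp23, and with the mean over probes, which drops Mmp24. Increased members, 0 otherwise, numbered 7 for spike-in, 19 unscaled and 1 with the adjusted p alone. Related genes lower, 4 otherwise, numbered 1 under quantile or cyclic loess normalization and 0 for spike-in, for unscaled values and for normexp plus quantile, and 4 to 5 when an array was left out. Related genes higher, 0 otherwise, numbered 1 with quantile normalization and cyclic loess, 8 for spike-in and 17 unscaled. Over all probes (172 higher, 2816 lower), quantile normalization gave 670 and 1021, cyclic loess 692 and 927, spike-in scaling 6374 and 231, no scaling 14920 and 162, normexp alone 53 and 3615, normexp plus quantile 57 and 68, and the counts were 108 higher with the methods' test, and 12750 lower with no filter. Leaving out 1 array gave 102 (without irisin replicate 3) to 335 (without irisin replicate 2) higher and 2632 to 3052 lower. The change of Mmp24, Plaur and Timp1 reversed with no scaling, at 0.11, 0.68 and 0.65, where the median of all genes was 0.67 and their changes relative to it -0.57, 0.01 and -0.02. Among the 15 members given array by array, differences called neither here nor under the setting named changed sign for 6 under spike-in scaling, 3 under cyclic loess, 3 under normexp alone, 2 under quantile normalization and 1 under normexp plus quantile. The cause of these shifts was not tested.

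The replicate numbers did not pair the arrays. Same-numbered arrays had correlations of 0.11, -0.35, -0.13 and 0.17 after removal of group means, and only replicates 1 and 4 correlated best with their own number. The replicate block gave 173 probes higher and 2832 lower, 3 members lower and 0 higher, and changed no other call of a member. Normexp with the local background was planned but not used, because its 5th percentile was 359 and 454 on irisin replicates 2 and 4 and 54.0 to 59.0 on the other arrays. Both normexp settings given here, and the within-array differences, were chosen after seeing the data. Both settings add an offset of 50 to every signal, so changes and counts of dim members under them are not comparable with the main fit. Signal over background limits the 8 untested members and the dimmest tested ones.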
